A study of Mus musculus with 16 samples.

Results

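Neurotrophic factors are secreted proteins that support the survival and connections of neurons. A set of 10 of their ligand and receptor genes (Bdnf, Ntf3, Ntrk2, Ntrk3, Ngfr, Sort1, Gdnf, Gfra1, Gfra2 and Ret) was followed in mouse striatum, out of 24421 gene symbols in the count tables. The genes were chosen by name, as the main members of the neurotrophin and GDNF systems, with earlier results of these data known. RNA was sequenced from the striatum of 16 mice aged 13 months, with 4 libraries in each of 4 groups. BACHD+Foxp2 mice carried the BACHD transgene, in which a bacterial artificial chromosome (BAC) delivers mutant human huntingtin to model Huntington disease, and received a virus to overexpress the forkhead transcription factor Foxp2. BACHD+Con mice carried the same transgene and received a control virus. Con+Foxp2 mice had the control genotype and received the Foxp2 virus, and Con+Con mice had the control genotype and received the control virus. All 16 mice were therefore injected with a virus. The sources used here do not give the virus type, its promoter, the species of the Foxp2 sequence or the interval to harvest, and no batch or day is labelled.

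Neurotrophins signal through Trk receptor kinases, Bdnf mainly through Ntrk2 (TrkB) and Ntf3 mainly through Ntrk3 (TrkC), and through the shared receptor Ngfr (p75). Striatal neurons make little Bdnf RNA of their own, and most Bdnf protein in the striatum is made by cortical neurons and carried down their axons. Huntingtin takes part in that transport, and a reduced supply of Bdnf to the striatum is a long-studied feature of Huntington disease models. Gdnf and its relative neurturin bind membrane-anchored co-receptors, Gfra1 and Gfra2, which engage the receptor kinase Ret.

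Gene reads per library ranged from 2660395 to 3669748. Levels are given in CPM, a gene's reads as a share of its library's TMM-scaled total, and log2 differences and adjusted p are from the quasi-likelihood test of edgeR with Benjamini-Hochberg adjustment over 13563 genes. A call is an adjusted p under 0.05. Foxp2 averaged 1589 ± 287 CPM in BACHD+Foxp2 libraries against 118 ± 28.5 CPM in BACHD+Con libraries, and 3999 ± 428 CPM in Con+Foxp2 libraries against 117 ± 26.6 CPM in Con+Con libraries (SD, n = 4 each). The virus label thus matched the Foxp2 level in every library. Under the Foxp2 virus, Foxp2 was lower in BACHD than in control mice, with a log2 difference of -1.33 ± 0.16 (SE; adjusted p = 9.64e-05). Markers of striatal projection neurons, the defining cells of the tissue, were present in all libraries, with 12 of 12 tested and a summed level of 3554 to 7216 CPM. Markers of cortical excitatory neurons varied more between libraries, with an SD of the mean log2 CPM of 1.01 against 0.34 for projection neuron markers. The mean of the cortical markers lay at 2.80 and 3.27 in BACHD+Con libraries 3 and 2 and at 2.82 in Con+Con library 4, more than 1 log2 unit under the median of 4.94, and at 3.98 or above in the other 13 libraries. Results that rest on those 3 libraries are given with and without them.

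Of the 10 genes, 9 passed the filter on low counts and were tested in 7 comparisons, and 0 of the 63 tests was called. In these comparisons 3 of the 63 had an unadjusted p under 0.05, and the lowest adjusted p was 0.363. DESeq2 and limma voom, run on the same counts, also called 0 of the genes in each comparison. In the authors' deposited tables of 3 comparisons, 0 of the 10 has an adjusted p under 0.05, while Ntf3 carries no adjusted p in either virus table and Gdnf none in that of BACHD mice. For the Foxp2 virus, 0 of 9 were called in control mice, where 0.229% of all tested genes were called, 0 of 9 in BACHD mice (0.243% of all), and 0 of 9 over both genotypes (1.05% of all). For the BACHD genotype, 0 of 9 were called under the Foxp2 virus (0.059% of all), 0 of 9 under the control virus (0.0147% of all) and 0 of 9 over both viruses (0.0369% of all). The interaction of genotype and virus gave 0 of 9 calls, with 0% of all genes called. With so few genes called in all, a count of 0 among 9 is near the background. On simulated data of this size for the virus comparison in control mice, the test recovered 45% of genes changed 2-fold and 83% of genes changed 4-fold. Those genes were drawn at random from all tested genes, for which the common coefficient of variation was 0.25. Its gene-wise value was 0.12 for Ntrk2, but 0.60 for Bdnf, 0.66 for Ret, 0.55 for Gdnf and 0.54 for Ngfr. The recovery rates are thus averages over all genes and do not hold for single members.

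**Figure D1:**
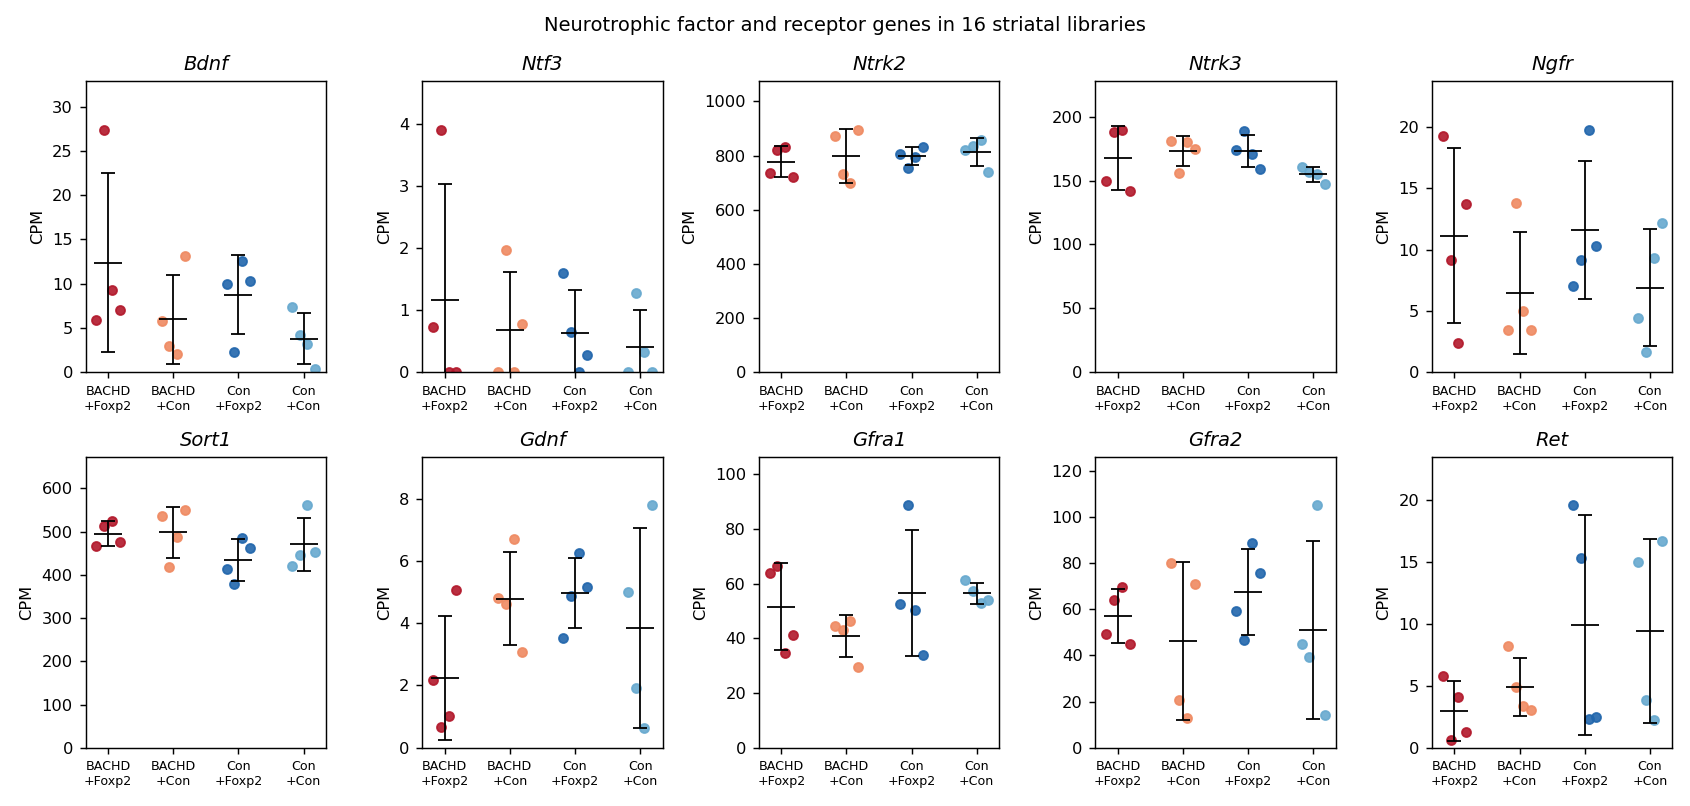
Level of each of the 10 genes in CPM (vertical axes, from 0) in the 4 groups (horizontal axes). Each point is 1 library, and black bars show the mean and SD of 4 libraries. Ntrk2, Ntrk3 and Sort1 vary little between libraries, while Bdnf, Ret and Gfra2 spread widely within groups.

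Per kilobase of exon, Sort1, Ntrk2 and Gfra2 had the highest levels of the 10 genes. Sort1 was highest, with 62.7 ± 6.99 CPM per kb over the 16 libraries, followed by Ntrk2 with 41.3 ± 3.1 CPM per kb and Gfra2 with 15.6 ± 7.47 CPM per kb (SD, n = 16 each). Sort1 exceeded Ntrk2, and Ntrk2 exceeded Gfra2, in 16 of 16 libraries, and the ranges of these neighbours did not overlap. Gfra1 followed with 9.37 ± 2.68 CPM per kb, then Ntrk3 with 5.54 ± 0.517 and Ngfr with 2.61 ± 1.64 CPM per kb. Bdnf had 1.24 ± 1.04, Gdnf 1.08 ± 0.597, Ret 1.01 ± 0.917 and Ntf3 0.420 ± 0.619 CPM per kb. From Gfra2 down, the ranges of neighbours in the order overlapped, and Gdnf exceeded Ret in only 8 of 16 libraries. Exon lengths are the union of all annotated isoforms, so the full-length and the kinase-lacking forms of the Trk receptors were counted together. On GENCODE M21, 5 of the genes (Bdnf, Ntrk2, Ntrk3, Sort1 and Gfra1) overlap non-coding genes, part of them antisense, whose reads could be mixed with theirs.

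Bdnf, the main ligand of TrkB, spans 109674700 to 109727007 on the plus strand of chromosome 2 (GRCm38). It had 5.83, 27.4, 9.26 and 6.99 CPM in BACHD+Foxp2 libraries 1 to 4, against 5.82, 2.96, 2.01 and 13.1 CPM in BACHD+Con libraries 1 to 4. It had 9.94, 2.28, 12.5 and 10.3 CPM in Con+Foxp2 libraries, against 7.35, 4.17, 3.20 and 0.371 CPM in Con+Con libraries. Group means were higher under the Foxp2 virus in both genotypes, but the groups overlapped in both, and BACHD+Foxp2 library 2 alone reached 27.4 CPM. These values rest on few reads, from 1 read in Con+Con library 4 to 84 reads in BACHD+Foxp2 library 2. The log2 difference between viruses was 1.07 ± 0.65 in BACHD mice (SE; adjusted p = 0.759) and 1.19 ± 0.67 in control mice (adjusted p = 0.792). Without BACHD+Foxp2 library 2 it was 0.30 ± 0.68 in BACHD mice, the lowest of a range of 0.30 to 1.78 over the alternatives, and none of them gave a call. Over both genotypes it was 1.13, a 2.18-fold difference with a 95% interval of 1.12 to 4.25 (unadjusted p = 0.0238, adjusted p = 0.363 with edgeR), and so it was not called. The difference between BACHD and control mice over both viruses was 0.55 ± 0.46 in log2 (adjusted p = 0.999), with an interval of 0.755-fold to 2.86-fold. The transport-related loss of Bdnf protein described in Huntington disease models is outside what RNA counts measure.

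The mean of the cortical markers was, like Bdnf, higher under the Foxp2 virus in both genotypes, with overlapping groups, though not every marker ran that way. In log2 CPM it was 5.09 ± 0.55 in BACHD+Foxp2 libraries against 4.22 ± 1.40 in BACHD+Con libraries. In control mice it was 5.05 ± 0.62 in Con+Foxp2 libraries against 4.32 ± 1.28 in Con+Con libraries (SD, n = 4 each). All 15 markers of the cortical list passed the filter, 3 of them with 0 reads in some library. Their summed level was 891 to 1638 CPM in BACHD+Foxp2 libraries against 291 to 1597 CPM in BACHD+Con libraries, and 614 to 1486 CPM in Con+Foxp2 libraries against 376 to 1955 CPM in Con+Con libraries. For the virus, 0 of the 15 were called higher, and 1, Lamp5, was called lower, both in BACHD mice and over both genotypes. Lamp5 had 24.7 to 46.6 CPM in BACHD+Foxp2 libraries against 44.8 to 81.9 CPM in BACHD+Con libraries. It did not follow the mean of the cortical list. In the 3 libraries lowest in that mean, it had 64.5 CPM (Con+Con library 4), 44.8 and 70.6 CPM (BACHD+Con libraries 2 and 3). In Con+Con library 3, the highest, it had 55.4 CPM. With the cortical level as a covariate, the log2 difference of Bdnf between viruses was 0.44 ± 0.40 over both genotypes (adjusted p = 0.822). Without the 3 libraries lowest in cortical markers it was 0.62 ± 0.43 (adjusted p = 0.824). Markers of cholinergic interneurons also differed with the virus, with a mean log2 CPM of 2.38 ± 0.56 in BACHD+Foxp2 libraries against 3.47 ± 0.51 in BACHD+Con libraries, and 2.46 ± 0.66 in Con+Foxp2 libraries against 3.57 ± 0.32 in Con+Con libraries (SD, n = 4 each). Of the 7 cholinergic markers, 1 was called lower in BACHD mice and 3 over both genotypes. Of all tested genes, 0.243% were called in either direction in BACHD mice and 1.05% over both genotypes. Astrocyte markers lay the other way, with a mean log2 CPM of 7.95 ± 0.13 in BACHD+Foxp2 libraries against 7.76 ± 0.11 in BACHD+Con libraries, and 8.13 ± 0.16 in Con+Foxp2 libraries against 7.87 ± 0.10 in Con+Con libraries. Of 9 astrocyte markers, 1 was called higher in BACHD mice and 3 over both genotypes, where 1 of 12 projection neuron markers was called lower. In the other 9 lists 0 markers were called for the virus, and in control mice alone 0 of any list. Over the 16 libraries Bdnf correlated with the cholinergic markers at r = -0.70 and rho = -0.74 (permutation p = 0.00218 and 0.00154). With projection neuron markers its r was -0.63 (permutation p = 0.00884), with oligodendrocyte markers -0.62 (permutation p = 0.0115), and with astrocyte markers 0.02. These lists were picked from 13, and the permutation p-values are unadjusted. Within groups, the slope of Bdnf on the cholinergic level was -1.24 ± 0.46 in log2 (SE), not called (adjusted p = 0.238 with edgeR). The part of these cells in the Bdnf difference between viruses was not tested. In bulk tissue, fewer cells of a type and less RNA per cell cannot be told apart.

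Bdnf is transcribed from several alternative starts that share the coding exon, and the count tables hold 1 value for all of them. RefSeq promoter windows on GRCm38.p6, 250 bases before to 50 bases after a start, were at hand for 14 starts of 6 of the 10 genes, 7 of them Bdnf starts. In all 5 short motifs were searched on both strands, and those described were chosen after the windows had been searched. The window of Bdnf at chr2:109692186-109692485 (plus strand) is shown because it holds TCACGTCA, in capitals, which starts 38 bases before the transcription start. An element of this kind, bound by Creb1, is known upstream of an activity-responsive Bdnf start in rodents. The window of Gdnf at chr15:7809798-7810097 (plus strand) holds the shorter CACGTCA, in capitals, 52 bases before its start.
Bdnf: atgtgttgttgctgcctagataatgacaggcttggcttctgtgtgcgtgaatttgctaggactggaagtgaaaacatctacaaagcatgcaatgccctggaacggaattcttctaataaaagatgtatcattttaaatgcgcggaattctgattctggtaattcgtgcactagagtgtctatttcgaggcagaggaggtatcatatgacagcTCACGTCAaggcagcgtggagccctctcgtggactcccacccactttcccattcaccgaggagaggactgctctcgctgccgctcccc
Gdnf: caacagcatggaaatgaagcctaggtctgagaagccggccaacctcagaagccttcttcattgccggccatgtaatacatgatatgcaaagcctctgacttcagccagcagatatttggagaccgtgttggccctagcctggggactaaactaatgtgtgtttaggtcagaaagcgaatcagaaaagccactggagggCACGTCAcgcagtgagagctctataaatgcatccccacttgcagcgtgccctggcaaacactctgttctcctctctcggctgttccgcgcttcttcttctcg
The motif CACGTCA, which lies inside TCACGTCA, was in 2 of the 14 windows and in 2.01% of the 32851 mouse windows. TCACGTCA was in 1 of 14 and in 0.441% of all windows. The palindromic cAMP response element TGACGTCA was in 0 of 14 (1.79% of all windows). The forkhead core TGTTTAC was in 0 of 14 (3.65% of all), as was its variant TATTTAC (3.04% of all). Such a match describes letters in these windows only.

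Ntrk2, Ntrk3 and Sort1 varied less between libraries than the other tested genes. Ntrk2, the TrkB kinase (chromosome 13, 58806569 to 59133970, plus strand), had 734, 822, 830 and 720 CPM in BACHD+Foxp2 libraries against 872, 730, 698 and 896 CPM in BACHD+Con libraries. It had 807, 753, 796 and 832 CPM in Con+Foxp2 libraries against 822, 834, 857 and 738 CPM in Con+Con libraries. All 4 groups overlapped. In the 7 comparisons its largest log2 difference in size was -0.04, and over both genotypes the virus difference was 0.977-fold with a 95% interval of 0.886-fold to 1.08-fold. The genotype difference over both viruses was 0.979-fold, with an interval of 0.887-fold to 1.08-fold (adjusted p = 0.999). Of the 9 genes, Ntrk2 had the narrowest intervals. Changes of more than about 0.17 in log2 for either averaged comparison lay outside them.

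Ntrk3, the TrkC kinase that binds Ntf3 (chromosome 7, 78175959 to 78738012, minus strand), had 150, 188, 190 and 142 CPM in BACHD+Foxp2 libraries against 181, 156, 180 and 175 CPM in BACHD+Con libraries. It had 174, 189, 171 and 159 CPM in Con+Foxp2 libraries against 161, 157, 155 and 147 CPM in Con+Con libraries. The lowest Con+Foxp2 library lay under the highest Con+Con library, so these groups overlapped too, and the log2 difference of 0.16 ± 0.11 was not called (SE; adjusted p = 0.870). Sort1 (chromosome 3, 108284082 to 108361511, plus strand) encodes sortilin, which sorts proneurotrophins in neurons and binds them together with p75. It averaged 495 ± 27.9 CPM in BACHD+Foxp2 libraries against 498 ± 59.7 CPM in BACHD+Con libraries, and 435 ± 48.6 CPM in Con+Foxp2 libraries against 470 ± 61.9 CPM in Con+Con libraries (SD, n = 4 each). Its genotype difference over both viruses was 1.1-fold, with a 95% interval of 0.981-fold to 1.23-fold (adjusted p = 0.999).

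Ngfr, the p75 receptor (chromosome 11, 95568818 to 95587735, minus strand), was low and uneven. It had 19.3, 9.13, 2.4 and 13.7 CPM in BACHD+Foxp2 libraries against 3.43, 13.8, 5.02 and 3.46 CPM in BACHD+Con libraries. It had 7.06, 9.12, 19.8 and 10.3 CPM in Con+Foxp2 libraries against 4.41, 1.60, 9.29 and 12.2 CPM in Con+Con libraries. The groups overlapped, with both high and low libraries under each virus. The log2 difference between viruses over both genotypes was 0.77 ± 0.41 (SE; unadjusted p = 0.077, adjusted p = 0.529). Without the 3 libraries lowest in cortical markers it was 1.43 ± 0.47 (adjusted p = 0.328), still not called. Ntf3, the ligand of TrkC (chromosome 6, 126101412 to 126166910, minus strand), was near the limit of detection, with 0 to 12 reads in a library and reads in 9 of 16 libraries. It reached 3.91 CPM in BACHD+Foxp2 library 2 and was at or under 1.97 CPM elsewhere. It failed the low-count filter and was not tested, and a count of 0 allows up to 0.816 to 1.15 CPM in a library.

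Gdnf, the ligand of Gfra1 and Ret (chromosome 15, 7810846 to 7837575, plus strand), had 2.19, 0.652, 1.03 and 5.08 CPM in BACHD+Foxp2 libraries against 4.80, 4.61, 6.69 and 3.07 CPM in BACHD+Con libraries. It had 3.53, 4.89, 6.27 and 5.17 CPM in Con+Foxp2 libraries against 5, 1.92, 0.641 and 7.79 CPM in Con+Con libraries. It lay lowest on average in BACHD+Foxp2 libraries, on 2 to 16 reads each, but the highest of them overlapped the BACHD+Con group. The log2 difference between viruses was -1.08 ± 0.69 in BACHD mice (SE; adjusted p = 0.771) and 0.38 ± 0.66 in control mice (adjusted p = 0.960). The interaction, the test of that contrast, gave -1.46 ± 0.95 (adjusted p = 1).

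Gfra1, the co-receptor that binds Gdnf (chromosome 19, 58235604 to 58455909, minus strand), had 63.8, 66.5, 34.6 and 41.3 CPM in BACHD+Foxp2 libraries against 44.5, 43.1, 46.2 and 29.6 CPM in BACHD+Con libraries. It had 52.6, 88.6, 50.5 and 34.0 CPM in Con+Foxp2 libraries against 61.4, 57.4, 52.9 and 53.8 CPM in Con+Con libraries. Under the control virus, Gfra1 averaged 40.9 CPM in BACHD+Con libraries against 56.4 CPM in Con+Con libraries. That log2 difference was -0.46 ± 0.24, a ratio of 0.726 with a 95% interval of 0.512 to 1.03 (unadjusted p = 0.0706, adjusted p = 1). In the authors' deposited table of the same comparison, Gfra1 has a log2 fold change of -0.34, an unadjusted p of 0.0184 and an adjusted p of 1. Under the Foxp2 virus the log2 difference between BACHD and control mice was -0.13 ± 0.24.

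Gfra2, the co-receptor preferred by neurturin (chromosome 14, 70890120 to 70979838, plus strand), varied up to several-fold inside groups. It had 49.2, 63.9, 69.6 and 45.1 CPM in BACHD+Foxp2 libraries against 79.8, 20.7, 12.7 and 71.1 CPM in BACHD+Con libraries. It had 59.0, 46.6, 88.8 and 75.6 CPM in Con+Foxp2 libraries against 45.0, 39.1, 105 and 14.1 CPM in Con+Con libraries. The 3 lowest values, from 12.7 to 20.7 CPM, were those of the 3 libraries lowest in cortical markers. The virus difference over both genotypes was 1.28-fold, with an interval of 0.808-fold to 2.03-fold (adjusted p = 0.769). Without those 3 libraries the log2 difference changed sign, to -0.15 ± 0.20.

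Ret, the kinase shared by Gdnf and neurturin (chromosome 6, 118151745 to 118197718, minus strand), had 5.83, 0.652, 4.11 and 1.27 CPM in BACHD+Foxp2 libraries against 19.6, 15.3, 2.31 and 2.45 CPM in Con+Foxp2 libraries. It had 8.22, 4.94, 3.35 and 3.07 CPM in BACHD+Con libraries against 15, 3.85, 2.24 and 16.7 CPM in Con+Con libraries. The 4 values over 10 CPM were all in control mice, and the other 4 control libraries lay among the BACHD libraries. Over both viruses, Ret in BACHD mice was at 0.396 times its level in control mice, with a 95% interval of 0.188 to 0.833 (unadjusted p = 0.0169), but the adjusted p of 0.999 with edgeR did not give a call. Under the Foxp2 virus the log2 difference between genotypes was -1.74 ± 0.75 (SE; unadjusted p = 0.0295, adjusted p = 0.998), and under the control virus -0.94 ± 0.72 (adjusted p = 1). Ret had 2 to 61 reads in a library.

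**Figure D2:**
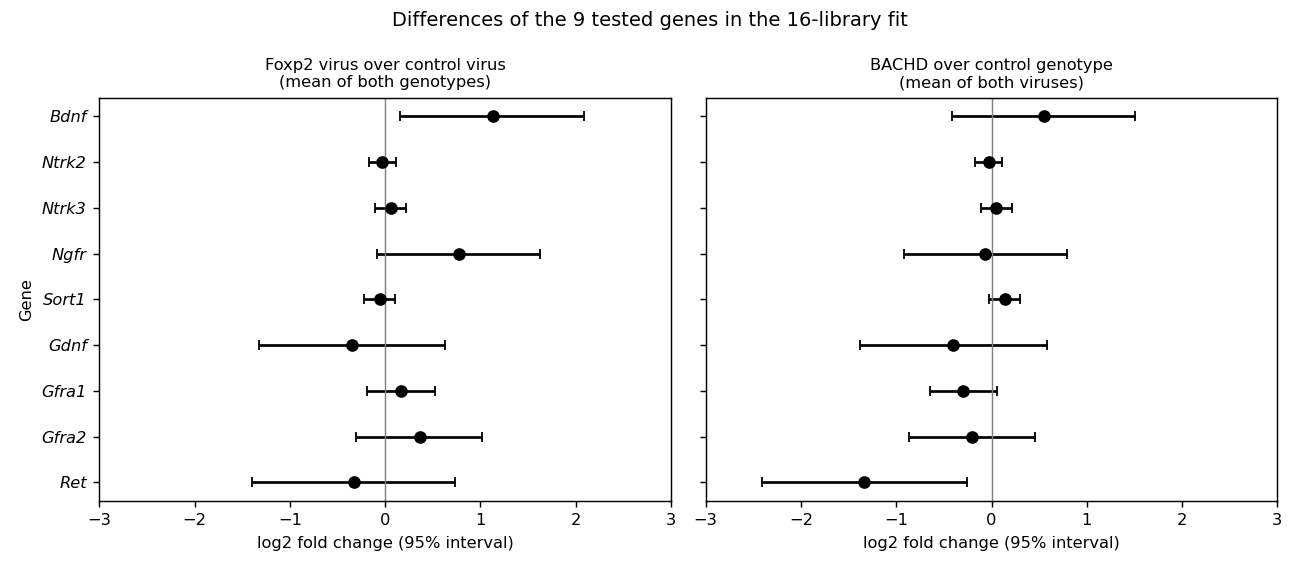
Log2 fold changes (horizontal axes) of the 9 tested genes (vertical axis) for the Foxp2 virus over the control virus and for BACHD over control mice, each averaged over the other factor. Points are estimates of the 16-library fit and bars their 95% intervals, unadjusted for the number of genes. Bars of Ntrk2, Ntrk3 and Sort1 are short, while those of Bdnf, Gdnf and Ret span about 2 log2 units.

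Across libraries, 3 of the 9 genes followed the cortical excitatory markers. Gfra2 correlated with the mean of the 15 markers at r = 0.96 and rho = 0.88 (n = 16; permutation p = 1e-05, the smallest that 100000 permutations can give, for r). Bdnf had r = 0.80 and rho = 0.76 (permutation p = 0.00014 and 0.0008), and Ntrk2 had r = 0.75 and rho = 0.66 (permutation p = 0.00091 and 0.0069). Sort1 had r = 0.51 and rho = 0.57 (permutation p = 0.0455 and 0.0229), and Gdnf ran the other way, with r = -0.56 and rho = -0.49 (permutation p = 0.0239 and 0.0573). Without the 2 libraries farthest from the median cortical level, r was 0.92 for Gfra2, 0.65 for Bdnf, 0.64 for Ntrk2 and -0.39 for Gdnf. Among the 13 libraries that remain without the 3 lowest, r was 0.86 for Gfra2, 0.58 for Bdnf, 0.54 for Ntrk2 and 0.72 for Sort1. There r was -0.35 for Gdnf. The points share their library and its depth with the markers, and 9 such relations were computed.

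A slope on the cortical level, fitted within groups for every gene and added after the values were seen, put these relations against the rest of the table. It was called for 3 of the 9 genes, against 5.26% of the 13563 tested genes. Per doubling of the cortical level, Gfra2 was higher by 0.83 ± 0.08 in log2 (SE; adjusted p = 9.79e-09), Bdnf by 0.96 ± 0.22 (adjusted p = 0.00687) and Ntrk2 by 0.10 ± 0.03 (adjusted p = 0.0399). Of all genes outside the marker list, 4 had an r with the cortical level at least as far from 0 as that of Gfra2, or 0.0295%. For Bdnf there were 295 such genes (2.18%), and for Ntrk2 441 (3.26%). The slope of Gfra2 was called in all 16 fits that leave out a library, and it was 0.62 ± 0.11 without the 3 lowest libraries (adjusted p = 0.00129). The slope of Bdnf was 0.96 ± 0.37 without those 3 libraries (adjusted p = 0.201) and 0.93 ± 0.27 without BACHD+Con library 4 (adjusted p = 0.054), where it lost its call. The call of Ntrk2 held in 5 of the 16 fits that leave out a library, and its slope was 0.08 ± 0.05 without the 3 lowest libraries (adjusted p = 0.63) and 0.11 ± 0.03 with a replicate block (adjusted p = 0.0659). For Sort1 the slope was 0.11 ± 0.04, near that of Ntrk2, but it was not called (adjusted p = 0.0657). It was called in 3 of the 16 fits that leave out a library, and was 0.18 ± 0.06 without the 3 lowest libraries (adjusted p = 0.118). For Ntrk3 the slope was 0.03 ± 0.04 and for Ngfr -0.29 ± 0.21, neither called. The slope of Gdnf was -0.54 ± 0.26 and was not called either (adjusted p = 0.317 with edgeR).

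**Figure D3:**
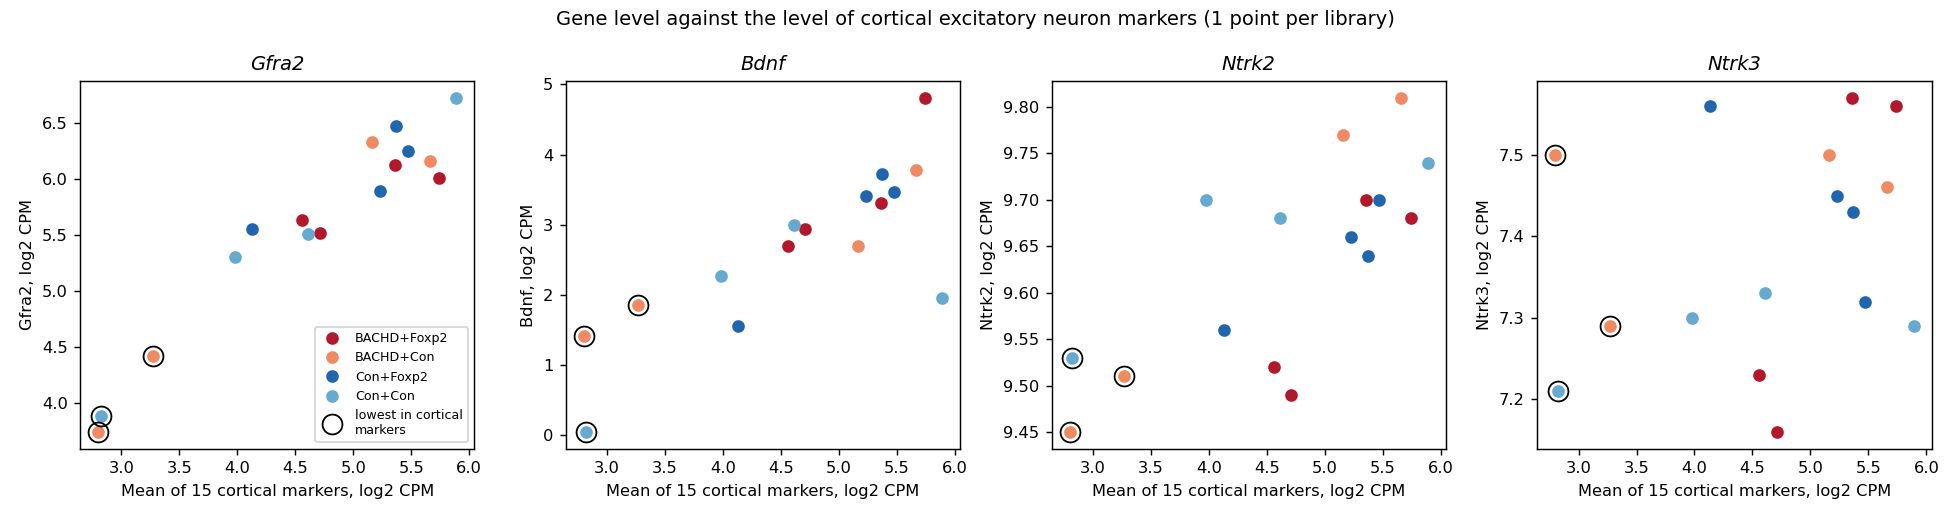
Level of Gfra2, Bdnf, Ntrk2 and Ntrk3 (vertical axes, log2 CPM) against the mean level of 15 cortical excitatory neuron markers (horizontal axes, log2 CPM). Each point is 1 library coloured by group, and circles mark the 3 libraries lowest in cortical markers. Gfra2 follows the cortical level closely (r = 0.96), Bdnf and Ntrk2 less closely, and Ntrk3 least of the 4 (r = 0.26). The vertical axes differ in span.

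Slopes were also fitted on 12 other marker lists of cells in or near the striatum, which makes 117 relations for the 9 genes, of which 4 were called. On the projection neuron markers Gfra2 alone was called, at -2.11 ± 0.35 (SE; adjusted p = 0.00037), against 4.25% of all genes. It was -1.26 ± 0.29 without the 3 libraries lowest in cortical markers (adjusted p = 0.0165). Gfra2 was thus lower in libraries with more projection neuron marker RNA, within groups. The 2 marker levels were tied, however. The mean log2 CPM of projection neuron markers was 8.48 in Con+Con library 4 and 8.27 and 8.54 in BACHD+Con libraries 2 and 3, the lowest in cortical markers. It was 7.56 in Con+Con library 3, the highest in cortical markers. Whether the slope of Gfra2 on projection neuron markers is separate from that on cortical markers was not tested. Ret correlated with the 4 thalamic markers at r = 0.81 and rho = 0.70 (n = 16; permutation p = 0.00025 and 0.00404), a relation picked out of the 117 after they were computed. Its slope on the thalamic level was 1.09 ± 0.26 (unadjusted p = 0.000334, adjusted p = 0.238) and was not called, and 0 of 9 genes were called there against 0.0885% of all genes. The summed thalamic markers reached 50.2 to 167 CPM in BACHD+Foxp2 libraries and 77.8 to 377 CPM in Con+Foxp2 libraries, and 59.9 to 140 CPM in BACHD+Con libraries and 76.6 to 353 CPM in Con+Con libraries. None of the 4 thalamic markers was at 0 in any library, and their part in the genotype values of Ret was not tested. Sort1, likewise picked out of the 117, correlated with the astrocyte markers at r = -0.73 (permutation p = 0.00136). The slope of Sort1 on the astrocyte level was -0.94 ± 0.31, not called (adjusted p = 0.297 with edgeR).

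**Figure D4:**
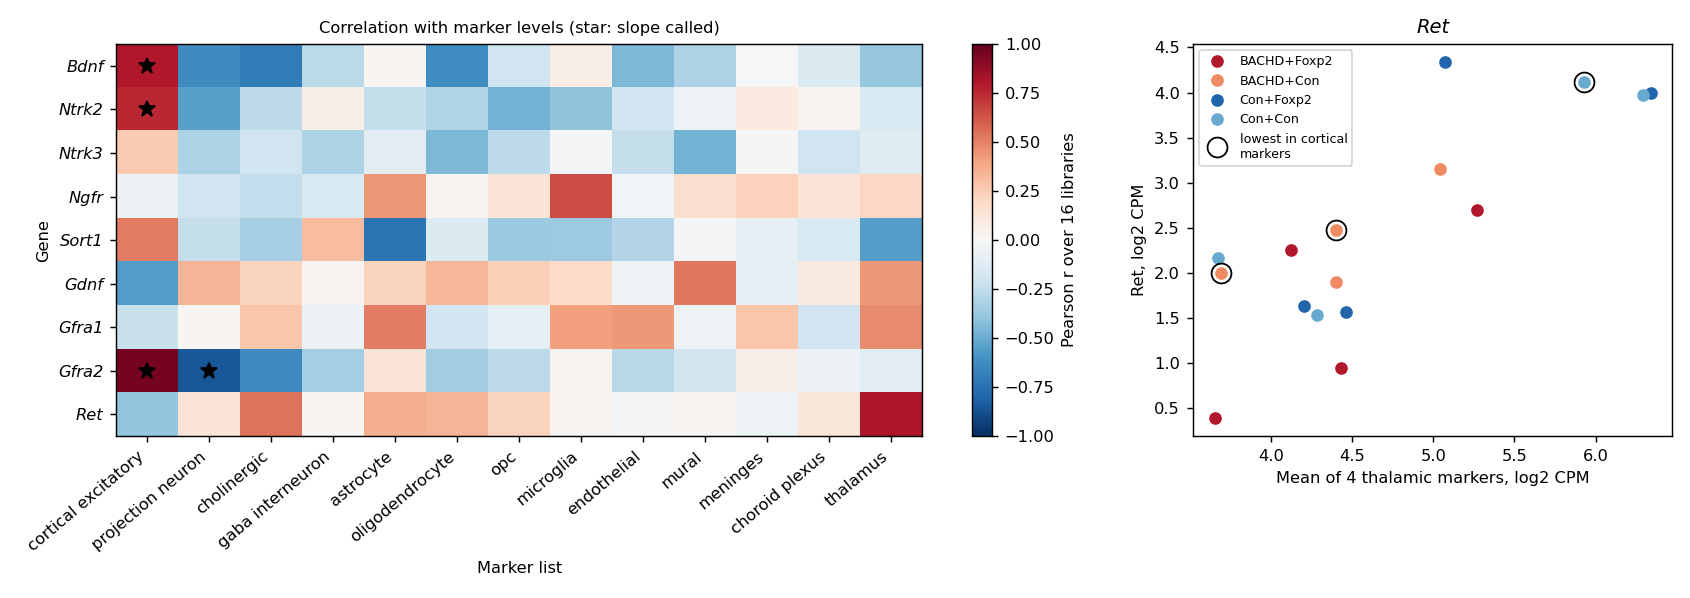
Left, Pearson r over 16 libraries (colour scale) between the 9 tested genes and the mean levels of 13 marker lists, with a star where the within-group slope was called. Right, Ret (log2 CPM) against the mean of 4 thalamic markers (log2 CPM), with 1 point per library coloured by group. Stars stand at 3 genes for cortical markers and at Gfra2 for projection neuron markers.

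The genes whose levels ran most like those of the set over the 16 libraries were drawn from 10682 genes with a mean of at least 3 log2 CPM. For Gfra2 they were Golga7b (r = 0.97), Neurod6 (r = 0.96), which is a member of the cortical list, and Ncald (r = 0.95). For Ntrk2 they were Mgat5 (r = 0.89), Inpp5b and Sdk2 (both r = 0.87), and for Sort1 Fbxw7 (r = 0.92), Ppfia3 (r = 0.91) and Rab6b (r = 0.90). For Gfra1 they were Mrpl15 (r = 0.86), Cpsf2 (r = 0.83) and Ldah (r = 0.78). The highest r was 0.77 for Ngfr, with Fam13a, and 0.76 for Ntrk3, with Gpkow. Bdnf and Ret were under the level set for this search; looked up after their values were seen, Bdnf ran closest to Epha5 (r = 0.93) and Ret to Prkcd (r = 0.89), which is in the thalamic list.

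The other members of the 2 families were mostly low or not called. Of 15 listed, 7 were tested and 0 were called in any comparison. Gfra3 had 0 reads in all libraries, and Artn had a median of 0.593 CPM over the 16 libraries. Gfra4 had a median of 24.7 CPM. Sorcs3, a relative of sortilin, averaged 59.4 ± 4.57 CPM in BACHD+Foxp2 libraries against 44.2 ± 7.09 CPM in BACHD+Con libraries (SD, n = 4 each), and was not called (adjusted p = 0.581). In Con+Foxp2 libraries it averaged 58.9 ± 7.50 CPM against 46.4 ± 12.2 CPM in Con+Con libraries.

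Downstream of the receptors, 44 genes of Trk and Ret signalling were tested, and 2 were called for the virus over both genotypes, both lower, where 1.05% of all genes were called. In each genotype alone 1 of 44 was called, Map2k5, against 0.243% of all genes in BACHD mice and 0.229% in control mice. Map2k5, the kinase upstream of Erk5, averaged 37.0 ± 7.46 CPM in BACHD+Foxp2 libraries against 72.1 ± 11.9 CPM in BACHD+Con libraries, and 35.4 ± 9.50 CPM in Con+Foxp2 libraries against 73.7 ± 14.2 CPM in Con+Con libraries (SD, n = 4 each). Its groups did not overlap in either genotype, and the log2 difference was -0.96 ± 0.20 in BACHD mice (SE; adjusted p = 0.0383) and -1.06 ± 0.20 in control mice (adjusted p = 0.0173). In the authors' deposited tables its adjusted p is 0.00327 in BACHD mice and 0.0005 in control mice. The call held in 15 of 25 alternatives in BACHD mice and in 21 of 25 in control mice. Without the 3 libraries lowest in cortical markers, the difference in BACHD mice was -0.92 ± 0.25 and lost its call (adjusted p = 0.319). Plcg1, the phospholipase recruited by Trk receptors, averaged 119 ± 17.7 CPM in BACHD+Foxp2 libraries against 154 ± 12 CPM in BACHD+Con libraries, and 99.8 ± 9.40 CPM in Con+Foxp2 libraries against 145 ± 15.1 CPM in Con+Con libraries. It fell in the average over both genotypes, by 0.45 in log2 (SE 0.09, adjusted p = 0.00817), and was not called in BACHD mice (adjusted p = 0.389) or in control mice (adjusted p = 0.0797) alone. In control mice 2 of 25 alternatives called it, and the authors' deposited table of that comparison gives it a log2 fold change of -0.49 with an adjusted p of 0.0146. Without the 3 libraries the average was -0.39 ± 0.11 (adjusted p = 0.167). The median log2 difference of the 44 genes was -0.03 over both genotypes, against 0.00 for all tested genes.

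Of 15 tested genes that process or carry neurotrophins, Htt alone was called, and for the genotype. It averaged 551 ± 49.3 CPM in BACHD+Foxp2 libraries against 255 ± 11.7 CPM in Con+Foxp2 libraries, and 605 ± 123 CPM in BACHD+Con libraries against 285 ± 27.8 CPM in Con+Con libraries (SD, n = 4 each). BACHD mice carry the human gene, and reads of the human and the mouse copy may be counted together, so this is no measure of the mouse gene. Among 18 tested regulators of Bdnf transcription 0 were called in any comparison. Npas4, an activity-induced factor known to drive Bdnf, had 13.2 ± 4.89 CPM in BACHD+Foxp2 libraries against 22.7 ± 11.6 CPM in Con+Foxp2 libraries, and 13.0 ± 4.31 CPM in BACHD+Con libraries against 31.3 ± 10.6 CPM in Con+Con libraries. Its genotype difference over both viruses was -1.02 ± 0.26 in log2 (SE; unadjusted p = 0.000722, adjusted p = 0.576). Among 11 tested activity-induced genes that neurotrophins also induce, and among 35 tested genes of other trophic systems, 0 were called. Fgf9, a fibroblast growth factor, averaged 13.3 ± 2.65 CPM in BACHD+Foxp2 libraries against 25.0 ± 3.87 CPM in Con+Foxp2 libraries (adjusted p = 0.819). It averaged 15.2 ± 3.12 CPM in BACHD+Con libraries against 14.0 ± 3.16 CPM in Con+Con libraries, so Con+Foxp2 alone was high. In control mice the log2 difference between viruses was 0.83 ± 0.25 (SE), not called (adjusted p = 0.286).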

How the data were processed

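Members, gene lists and marker lists were chosen with earlier results of these data known. Named genes were the 10 members, each pathway gene called anywhere or otherwise the 2 of a list with the lowest p, and the 3 genes most like each member. The authors deposited whole, unnormalized read counts per gene, with mm10, STAR 2.4.0, HTSeq and DESeq2 listed in the submitters' processing notes. The sources used here do not say whether strand was counted, so antisense RNAs overlapping members on GENCODE M21 cannot be told apart. RNA came from a lipid tissue kit and SMARTer libraries, per the labels. The 5 summary lines were left out; genes took 22.5% to 24.7% of listed reads. The authors' deposited tables, DESeq2 in form, give log2 fold changes, p-values, a test score and mean counts (signal); fold changes and p-values were copied. Here counts were scaled by TMM, filtered with filterByExpr and fitted in edgeR 4.0.16 (R 4.3.3), all 16 libraries together, with a mean per group leaving 12 residual degrees of freedom. All tests were two-sided. Log2 CPM used a prior count of 2. Libraries carry no molecular identifiers, and the floor of 3 counts covers counting error only. The design text gives 4 mice a group, but no label names the mouse of a library, so p-values measure the spread between libraries. All 120 library pairs differed beyond counting error. Alternatives used DESeq2 1.42.0 and limma 3.58.1. The self-test simulated counts. Some listed genes are not reported here by name.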

Additional observations from a re-analysis of the deposited data

Results flagged for a closer look

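In 2 of 84 groups of 4 libraries examined, a library stood far from the other 3, where chance flags about 1 in 20 groups. Bdnf reached 27.4 CPM (84 reads) in BACHD+Foxp2 replicate 2, against 9.26 CPM in the next library and 5.83 CPM in the lowest of the group. The same library had the highest Ntf3 level, at 3.91 CPM. Ngfr reached 13.8 CPM (42 reads) in BACHD+Con replicate 2, against 5.02 CPM in the next library and 3.43 CPM in the lowest.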

How the results depend on the processing

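Under 25 alternatives (scaling, filter, test, samples in the fit, replicate block, cortical covariate, each library left out, and the 3 lowest-cortical libraries left out), all 172 recomputed counts of called members stayed at 0 in the 7 comparisons. The alternative without the 3 libraries and all slope fits were chosen after seeing the data. Of 1720 recomputed fold changes 94 changed sign, all of uncalled values. The cause was not tested.

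Sign changes outside the leave-one-out fits were as follows. For the virus in control mice, Gfra1 was 0.01 with upper-quartile scaling, 0.07 with the cortical covariate and 0.00 with only these groups, and Ret was -0.05 with the replicate block and -0.12 with limma voom. In BACHD mice, Sort1 was 0.00 with upper-quartile scaling and with limma voom, and Gfra2 was -0.08 with the cortical covariate. With limma voom Ngfr was 0.09 for the genotype under the control virus and -0.37 for the interaction, and Gfra2 was 0.05 for the interaction. Over both genotypes the virus difference of Gdnf was 0.17 with the covariate. Without the 3 libraries, the virus difference of Gfra2 was -0.41 in BACHD mice and -0.15 over both genotypes, that of Gdnf was 0.08 over both, the genotype differences under the control virus were 0.08 for Ntrk2 and 0.26 for Gfra2, those over both viruses were 0.02 and 0.01, and the interaction of Sort1 was -0.01.

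Leaving out 1 library, the virus difference in control mice ranged from -0.07 to 0.00 for Ntrk2, -0.30 to 0.19 for Gfra1 and -0.51 to 0.48 for Ret. In BACHD mice it ranged from -0.09 to 0.02 for Ntrk2, -0.12 to 0.03 for Ntrk3 and -0.08 to 0.05 for Sort1. The genotype difference under the control virus ranged from -0.10 to 1.16 for Bdnf, -0.09 to 0.03 for Ntrk2, -0.77 to 0.33 for Ngfr, -0.02 to 0.90 for Gdnf and -0.57 to 0.47 for Gfra2. Under the Foxp2 virus it ranged from -0.26 to 0.72 for Bdnf, -0.11 to 0.02 for Ntrk3, -0.46 to 0.33 for Ngfr and -0.31 to 0.17 for Gfra1. Over both viruses it ranged from -0.41 to 0.14 for Ngfr and -0.41 to 0.11 for Gfra2. The interaction ranged from -0.88 to 0.60 for Bdnf, -0.06 to 0.05 for Ntrk2, -0.39 to 0.71 for Ngfr and -0.72 to 0.32 for Gfra2.

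Counts over all genes moved more. For the virus in control mice 31 genes were called, 75 without the filter, 79 by DESeq2 and 10 to 46 with a library left out. In BACHD mice 33 were called, 53 without the filter, 62 by DESeq2, 19 with only these groups, 6 without the 3 libraries and 9 to 32 with a library left out. Over both genotypes 143 were called, 234 by DESeq2 and 61 without the 3 libraries. For the genotype under the control virus 2 were called, 1 with the block, limma voom or without the 3 libraries, and 1 to 2 with a library left out. Under the Foxp2 virus 8 were called, 15 by DESeq2 and 4 to 10 with a library left out, and over both viruses 5, or 8 without the filter. The interaction gave 0, 3 without the filter and by DESeq2, 2 with the covariate, and 0 to 1 with a library left out. On cortical markers 713 genes and 3 members had a called slope, 422 and 1 without the 3 libraries, and 351 to 751 and 1 to 4 with a library left out. On projection neuron markers 577 genes and 1 member were called, 279 genes without the 3 libraries, 2 members without the filter, and 256 to 723 genes and 1 to 2 members with a library left out. On thalamic markers 12 genes were called, 5 with the block, 19 without the 3 libraries and 4 to 14 with a library left out.

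The labels number libraries 1 to 4 in each group, but the numbers did not pair them: the deviations of 24 same-number pairs correlated at -0.26 to 0.14, with 6 above 0.1. With a replicate block 21, 22 and 133 genes were called for the virus in control mice, in BACHD mice and over both, and 0 members. Members with few reads (Bdnf, Gdnf, Ret, Ngfr) have wide intervals, and depth limits what can be seen in them.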
